A study of Mus musculus with 24 samples.

Results

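The expressed solute carrier genes of a mouse macrophage line are described here, 169 genes of the 395 whose symbol starts with Slc and a digit or with Slco, in a table of 25160 genes. Solute carriers are membrane proteins that move nutrients, metabolites, ions and metals without splitting ATP, down a gradient or coupled to another ion. Some sit in the plasma membrane, others in the membranes of lysosomes, mitochondria, the endoplasmic reticulum or the Golgi apparatus. In macrophages they are known for taking up glucose and arginine after activation, for exporting lactate, and for handling iron, zinc and copper, which microbes also need. Members were chosen by level alone: for each gene the transcript with the highest mean count was taken, and a gene entered where that transcript averaged at least 5 CPM over the 24 libraries. CPM are counts scaled to a library total of 1e6, with the total taken over 1 transcript per gene.

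The libraries came from RAW 264.7, a macrophage-like cell line grown from a mouse tumour. In 1 stable derivative doxycycline switches on Nur77, and in a second it switches on GFP. Nur77 is a nuclear receptor and GFP a fluorescent protein that served as control. Every group, the controls included, received 50 ng/ml doxycycline for 18 h. They were then given lipopolysaccharide (LPS) at 500 ng/ml for 1 or 5 h, or were collected with none (0 h). LPS is a component of the bacterial outer membrane that macrophages sense. Each of the 6 groups (Nur77 line and GFP line at 0, 1 and 5 h) had 4 libraries of messenger RNA. The series title concerns Nur77 and the target genes of AP-1, a transcription factor made of Fos and Jun proteins. Each construct was present in 1 stable line, so an effect of the construct and a difference between the 2 lines cannot be told apart. Nothing in the labels says that replicates were grown separately, so the spread behind each p-value may be technical.

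Depth, summed over 1 transcript per gene, was 8134143 to 29275847 estimated counts per library. All 10 macrophage markers on the list were expressed, from 20.8 to 6236 CPM over the libraries, and summed to 5613 to 7874 CPM in the Nur77 line and 10412 to 12396 CPM in the GFP line. The part of this gap in the results below was not tested. Of the other lists, 5 of 5 epithelial and 5 of 6 lymphocyte markers were at 0 in every library. Nr4a1, the gene of Nur77, was at 2.74 to 3.71 CPM in the Nur77 line and 2.46 to 3.34 CPM in the GFP line at 0 h, and no difference between the lines was called there (log2 fold change 0.10, adjusted p = 0.87). At 1 h it was at 42.4, 9.29, 40.0 and 39.8 CPM in the Nur77 line and 52.0, 63.2, 65.0 and 66.8 CPM in the GFP line, lower in the line labelled Nur77 (log2 fold change -0.91, adjusted p = 0.0049), and at 5 h its difference of 0.74 was not called (adjusted p = 0.11). The counts of Nr4a1 thus gave no check of the labels, and "Nur77 line" means the line so labelled. Replicate 2 of the Nur77 line at 1 h stood apart, with a lowest correlation of 0.976 to its own group, against 0.988 or higher in the other groups. For counts of members and most named members that rest on the Nur77 line at 1 h, the value without it is given as well.

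By main substrate, the 169 members were 33 mitochondrial carriers, 26 carriers of amino acids and derivatives, 24 of metals, 20 of inorganic ions, 13 of sugars, 13 of nucleotide sugars and 7 of vitamins, haem and cofactors. A further 5 carry peptides, organic ions or drugs, and monocarboxylates, nucleosides and lipids had 4 members each. No substrate was assigned to 13 members, and 3 that share the symbol prefix (Slc4a1ap, Slc9a3r1 and Slc7a6os) are not carriers. The fraction of a class that was expressed ran from 13 of 14 for nucleotide sugars and 33 of 48 for mitochondrial carriers down to 26 of 72 for amino acids and 5 of 59 for peptides, organic ions and drugs. Of the 226 genes below 5 CPM, 63 had no count in any library. Just inside the threshold lay Slc39a8 at 5.50 CPM, Slc7a2 at 5.60 CPM and Slc9a9 at 5.61 CPM. Just outside lay Slc25a26 at 4.97 CPM, Slc45a3 at 4.11 CPM and Slc17a9 at 4.09 CPM. In 155 members the mean of every group reached 5 CPM, and 14 members were below it in at least 1 group. Slc7a2 reached it in 1 group only, the GFP line at 5 h, so it became a member through the group where it was high. Another 9 genes below the overall threshold reached 5 CPM in at least 1 group. Counts over members describe these 169 genes and not the whole family.

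Promoter sequence is shown for 5 of the members described below, picked because each holds a match to a motif searched, since the question of the series is about a transcription factor and its sites. They do not stand for the rest: the windows of Slc28a2, Slc8a1 and Slc3a2 held none of the motifs. Slc7a2, Slc15a3 and Slc40a1 are not shown. The stretches are the 150 bases before the most upstream start listed in the promoter set, read 5′ to 3′ on the gene's strand, from RefSeq on build GRCm38.p6. For Slc7a11 and Slc30a1 the gene coordinates given below extend further upstream than this start. The stretch of Slc7a11 thus lies within its gene span, and that of Slc30a1 overlaps its span. Capitals mark a match to the AP-1 motif TGANTCA in Slc7a1, Slc37a2 and Slc6a12, to the NF-kB consensus in Slc6a12, to the amino acid response element TGATGNAA in Slc7a11, and to the metal response element TGCNCNC in Slc30a1.
Slc7a11, chr3:50443614-50443763, minus strand: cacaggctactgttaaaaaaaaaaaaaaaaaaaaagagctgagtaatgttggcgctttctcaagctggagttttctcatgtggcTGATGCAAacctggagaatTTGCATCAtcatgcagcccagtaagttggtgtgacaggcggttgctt
Slc7a1, chr5:148399905-148400054, minus strand: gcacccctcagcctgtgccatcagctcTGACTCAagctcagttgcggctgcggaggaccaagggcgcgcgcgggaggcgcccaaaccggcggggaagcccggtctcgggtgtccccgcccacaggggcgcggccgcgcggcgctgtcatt
Slc37a2, chr9:37255739-37255888, minus strand: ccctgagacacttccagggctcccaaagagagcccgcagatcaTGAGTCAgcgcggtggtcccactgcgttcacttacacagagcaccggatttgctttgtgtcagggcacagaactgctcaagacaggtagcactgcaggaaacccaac
Slc6a12, chr6:121342424-121342573, plus strand: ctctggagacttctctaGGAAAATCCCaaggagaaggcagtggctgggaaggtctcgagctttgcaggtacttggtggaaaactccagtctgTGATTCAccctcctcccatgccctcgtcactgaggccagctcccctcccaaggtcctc
Slc30a1, chr1:191906631-191906780, plus strand: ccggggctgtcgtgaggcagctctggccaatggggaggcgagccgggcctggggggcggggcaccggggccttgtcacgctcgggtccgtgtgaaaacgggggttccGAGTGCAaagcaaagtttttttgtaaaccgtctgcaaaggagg
The amino acid response element of Slc7a11 occurred in both orientations, starting 66 and 47 bases before the start. The AP-1 matches began 123 bases before the start in Slc7a1, 107 in Slc37a2 and 58 in Slc6a12. The metal response element of Slc30a1 began 43 bases before the start.

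Over all members, 131 had a RefSeq promoter, with 183 windows of 300 bases from 250 before to 50 after a start, and 5 motifs were searched on both strands. AP-1 matched 6.56% of the members' windows and 7.81% of all 32851 windows. The NF-kB consensus matched 8.20% of the members' windows against 4.51% of all. The amino acid response element matched 4.37% against 3.97%, the antioxidant response element TGACNNNGC 21.3% against 12.4%, and the metal response element 59.0% against 51.0%. A stretch can match both the AP-1 and the antioxidant motif. The 32851 windows were not limited to expressed genes, whereas members were chosen by level. A gene with several starts also counts once per start. Whether the gaps in these shares are particular to solute carriers was thus not tested. A match gives the letters only and shows neither binding nor a cause.

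The members together took 1.18% to 1.47% of the counts of a library. Per kilobase of the chosen transcript, mean levels over the 24 libraries were led by 2 mitochondrial carriers, the ADP/ATP carrier Slc25a5 with 544 CPM per kb and the phosphate carrier Slc25a3 with 258 CPM per kb. Slc25a5 shared 29.1% and 22.3% of its 50-base stretches with its pseudogenes Gm5560 and Gm5529, so its count may include or lose reads of these. Next came Slc3a2, the heavy chain that carries several amino acid exchangers to the surface, with 178 CPM per kb. The phosphate importer Slc20a1 had 123, and 3 sodium-coupled carriers of glutamine and other neutral amino acids, Slc38a2, Slc1a5 and Slc38a1, had 122, 119 and 115 CPM per kb. The lactate exporter Slc16a3 followed with 109 and the glucose carrier Slc2a1 with 102 CPM per kb.

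**Figure D1:**
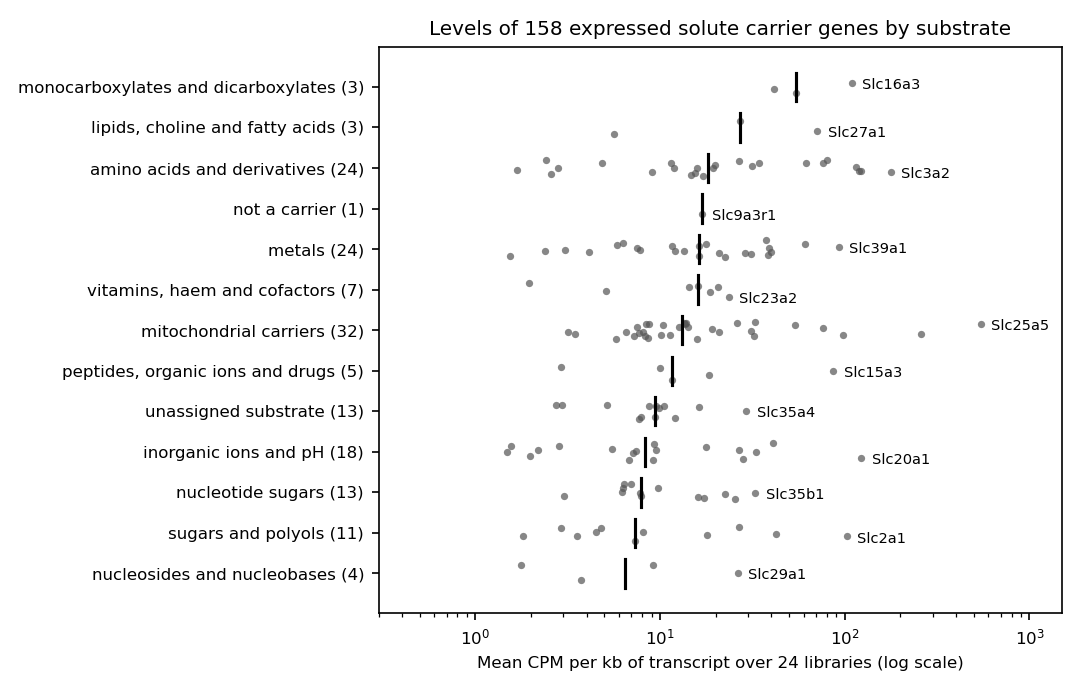
Level of each member, as the mean of 24 libraries in CPM per kilobase of transcript on a log axis, by substrate class. Each point is 1 gene. The mitochondrial carriers Slc25a5 and Slc25a3 lie highest, at 544 and 258 CPM per kb.

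The lines were compared at each time with all 6 groups in 1 fit. Before LPS, 41 members were higher and 40 lower in the Nur77 line than in the GFP line (edgeR's quasi-likelihood test, adjusted p under 0.05 over all 12198 genes tested). Of all genes, 39.9% were called there, 20.3% higher and 19.7% lower. At 1 h, 33 members were higher and 63 lower, against 51.2% of all genes called, 26.4% higher and 24.8% lower. Without replicate 2 of the Nur77 line, 34 and 68 members were called. At 5 h, 38 were higher and 59 lower, against 46.4% of all genes, 22% higher and 24.4% lower. Among the 9886 genes that also averaged 5 CPM or more, 41.2%, 54.2% and 48.6% were called at 0, 1 and 5 h. The median log2 fold change of the members was 0.03 at 0 h, -0.14 at 1 h and -0.06 at 5 h, and that of all genes tested was 0.02, 0.01 and 0.00. Most differences were small. A log2 fold change of at least 1 in size was reached by 1 higher and 4 lower members at 0 h (2.55% and 5% of all genes), 2 and 5 at 1 h (2.97% and 5.37%), and 2 and 12 at 5 h (2.37% and 6.72%). At all 3 times, 18 members were higher and 32 lower in the Nur77 line, and 35 were called at no time, against 10.7%, 13.2% and 30.3% of all genes. In bulk libraries, fewer cells with a transcript and less of it per cell cannot be told apart. Of the 12 members with an AP-1 match in the promoter, the 5 h comparison of the Nur77 line with the GFP line called 4 higher and 3 lower, and of the 119 without one, 22 were higher and 45 lower. Of the 13 members with a match to the NF-kB consensus, 0 were called higher and 9 lower, and of the 118 without one, 26 and 39. For the antioxidant response element these were 4 and 12 of 33, and 22 and 36 of 98. The metal response element had 17 and 33 of 84, and 9 and 15 of 47. For the amino acid response element they were 2 and 3 of 7, and 24 and 45 of 124. Other comparisons are not given by motif, and a link between motif and level was not tested.

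**Figure D2:**
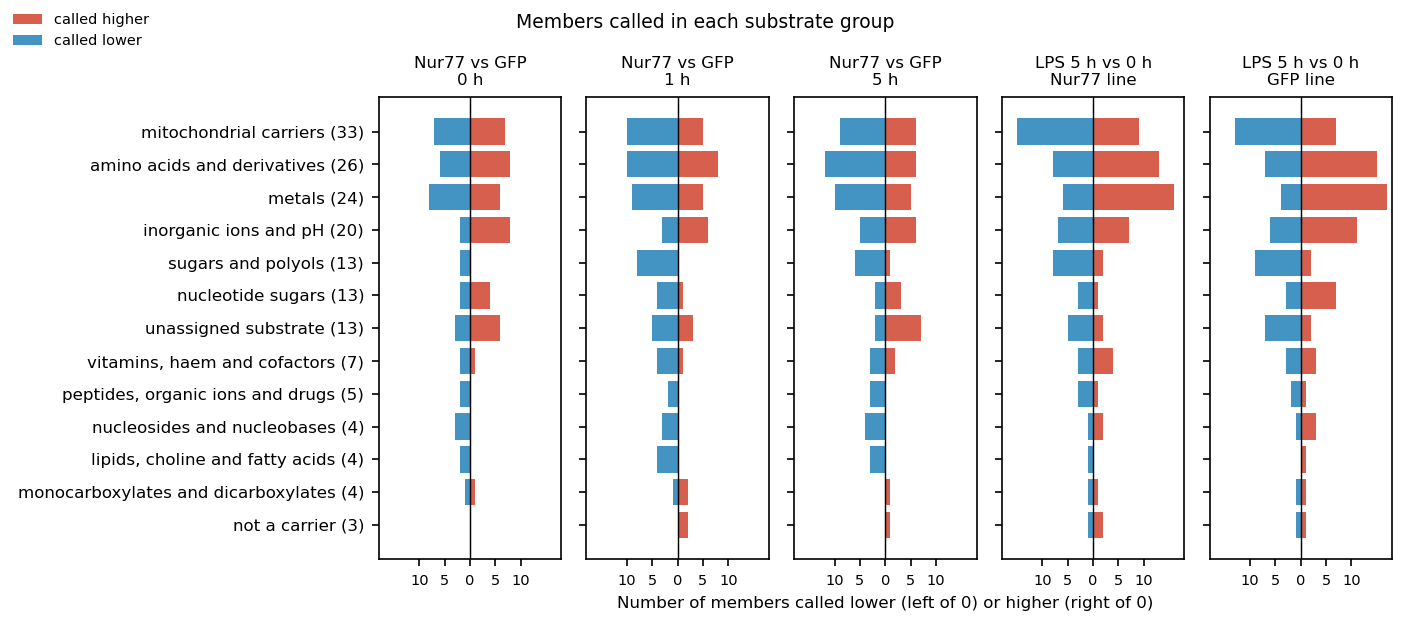
Number of members called higher or lower (adjusted p under 0.05) in each substrate class, for the Nur77 line against the GFP line at 0, 1 and 5 h and for LPS at 5 h against 0 h in each line. Sugar carriers had 6 of 13 members lower and 1 higher in the Nur77 line at 5 h, against 24.4% and 22% of all genes.

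The most negative log2 fold changes between the lines at 0 h were those of nucleoside carriers. Slc28a2 (chr2:122426357-122461152, GRCm38), the concentrative carrier of purine nucleosides and uridine, had 2.26, 2.20, 2.97 and 2.85 CPM in the Nur77 line and 14.2, 14.3, 16.1 and 11.8 CPM in the GFP line at 0 h. Its log2 fold change was -2.44 ± 0.13 (SE) at 0 h and -2.31 ± 0.11 at 5 h, with no overlap of the lines at either time. In the Nur77 line at 0 h Slc28a2 was below the 5 CPM threshold. It thus became a member through groups where it was higher, the GFP line among them, and its values are a description. At 1 h it was -2.53, and -2.62 without replicate 2. Its neighbour Slc28a2b, which shares 40.6% of its 50-base stretches with Slc28a2, was lower as well (-2.40 at 0 h and -2.27 at 5 h), and reads of the pair may be split between them. Slc29a3, a nucleoside carrier of lysosomes, was lower, with log2 fold changes of -0.50, -0.51 (-0.45 without replicate 2) and -0.45 at 0, 1 and 5 h. Slc29a1, the equilibrative carrier of the surface, was called lower only at 5 h (-0.38, adjusted p = 0.0027). A noncoding antisense gene overlaps 13.1% of its exon bases. All 4 expressed members of the class were thus lower in the Nur77 line at 5 h, against 24.4% of all genes.

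Amino acid carriers moved in both directions. At 0 h 8 of 26 were higher and 6 lower in the Nur77 line, at 1 h 8 and 10 (the same without replicate 2), and at 5 h 6 and 12. All genes had 20.3% and 19.7% at 0 h, 26.4% and 24.8% at 1 h, and 22% and 24.4% at 5 h. Higher at all 3 times was Slc7a5 (chr8:121881146-121907686), the exchanger of large neutral amino acids, with 322, 311, 333 and 293 CPM in the Nur77 line and 196, 184, 203 and 170.0 CPM in the GFP line at 0 h (log2 fold change 0.74 ± 0.08, adjusted p = 8.3e-08). Its partner Slc3a2 did not differ beyond its error at 0 h or 5 h (0.05 and 0.04, adjusted p = 0.68 and 0.73). At 1 h Slc3a2 was higher in the Nur77 line, by 0.34 (adjusted p = 0.0014), and by 0.20 without replicate 2. Slc38a2, which imports neutral amino acids with sodium, was higher by 0.51, 0.68 (0.65 without replicate 2) and 0.63 (log2) at 0, 1 and 5 h. Slc7a1, the constitutive carrier of arginine and lysine, was higher by 0.26, 0.37 (0.31 without replicate 2) and 0.33, the first with an adjusted p of 0.031. For Slc1a5, an importer of glutamine, no difference between the lines passed the test, with log2 values of 0.01, -0.04 (-0.15 without replicate 2) and 0.04.

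Lower at all 3 times was Slc6a8 (chrX:73673133-73682502), the creatine importer. It had 49.7, 61.6, 51.6 and 48.6 CPM in the Nur77 line and 114, 125, 116 and 109 CPM in the GFP line at 0 h. The log2 difference was -1.13 ± 0.08 (SE, adjusted p = 1.4e-11), and at 5 h it was -1.37. The GABA importer Slc6a13 was lower, with log2 fold changes of -0.96, -0.74 (-0.69 without replicate 2) and -1.32. Slc43a2 (chr11:75529915-75577575), a facilitated carrier of branched-chain amino acids, had 157, 150.4, 156 and 135 CPM in the Nur77 line and 219, 203, 234 and 188 CPM in the GFP line at 0 h (-0.50). At 5 h it had 19.0, 20.9, 24.2 and 21.9 CPM in the Nur77 line and 55.9, 60.0, 59.4 and 53.2 CPM in the GFP line (-1.42 ± 0.15). At 1 h the difference was -0.89, or -0.70 without replicate 2, which was at 59.7 CPM where the other 3 were at 113 to 122 CPM. The lines did not overlap for Slc43a2 at any of these times.

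Slc7a2 (chr8:40862341-40922070) is the cationic amino acid carrier that macrophages induce on activation, when it supplies arginine to nitric oxide synthase. Summed over 4 libraries it had 1.5 counts at 0 h, 5 at 1 h and 237 at 5 h in the Nur77 line, and 4, 4.5 and 2500 counts in the GFP line. At 5 h this was 3.61, 3.39, 3.64 and 4.10 CPM in the Nur77 line and 31.6, 32.9, 33.5 and 34.1 CPM in the GFP line. It became a member through its level in the GFP line at 5 h, so these values are a description. Its fold changes were tested with the rest but are not given here. The counts of members called include it as lower in the Nur77 line at 5 h. They also include it as higher after 5 h of LPS in both lines. At 0 and 1 h both lines were near the limit of detection, and a fold change would have no meaning there.

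Sugar carriers were lower or not called in the Nur77 line, with 1 exception at 5 h. Of 13 members, 0 were higher and 2 lower at 0 h, 0 and 8 at 1 h (the same without replicate 2), and 1 and 6 at 5 h. The shares of all genes were 20.3% and 19.7% at 0 h, 26.4% and 24.8% at 1 h, and 22% and 24.4% at 5 h. Summed over the class, CPM at 0, 1 and 5 h were 504 to 530.1, 574 to 628 and 742 to 814 in the Nur77 line, against 601 to 655, 728 to 803 and 1077 to 1141 in the GFP line. The glucose carrier Slc2a1 (chr4:119108745-119137330) had 119, 129, 131 and 119 CPM in the Nur77 line and 206, 204, 203 and 208 CPM in the GFP line at 0 h (-0.72 ± 0.08, adjusted p = 6.4e-08). At 5 h it had 429.6, 444, 468 and 436 CPM in the Nur77 line and 664, 658, 694 and 628 CPM in the GFP line (-0.57 ± 0.08), again without overlap. At 1 h the difference was -0.22 (adjusted p = 0.02), and -0.35 without replicate 2. At 5 h the log2 fold change was -0.85 for Slc2a6, a hexose carrier of lysosomes, and -0.91 for Slc2a8, an intracellular hexose carrier. Among monocarboxylate carriers, Slc16a3 was lower at 0 h (-0.44) and did not differ beyond its error at 5 h (-0.02, adjusted p = 0.84). At 1 h the log2 fold change of Slc16a3 was -0.31 with all libraries. Without replicate 2 it was -0.42 (adjusted p = 2.1e-06). The general lactate and pyruvate carrier Slc16a1 was called at no time.

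Metal carriers had 6 of 24 members higher and 8 lower at 0 h, 5 and 9 at 1 h (5 and 12 without replicate 2), and 5 and 10 at 5 h in the Nur77 line. For all genes these were 20.3% and 19.7% at 0 h, 26.4% and 24.8% at 1 h, and 22% and 24.4% at 5 h. Slc11a1, which pumps iron and manganese out of phagosomes, was lower, with log2 fold changes of -0.49, -0.46 (-0.63 without replicate 2) and -0.52 at 0, 1 and 5 h. The zinc exporter Slc30a1 (chr1:191906697-191913248) had 19.3, 19.9, 18.9 and 21.0 CPM in the Nur77 line and 30.1, 37.9, 32.5 and 36.7 CPM in the GFP line at 0 h (-0.79 ± 0.09, adjusted p = 8.4e-08). It was lower, with log2 fold changes of -1.26 at 1 h (-1.30 without replicate 2) and -0.88 at 5 h. Slc31a2, a copper carrier of endosomes, was lower, with log2 fold changes of -0.66 at 0 h and -0.66 at 5 h. Its value at 1 h of -0.34 was not called (adjusted p = 0.083), but without replicate 2 it was -0.67 (adjusted p = 2.5e-08).

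In the other direction, Slc39a14 (chr14:70303467-70351452), an importer of zinc and of iron not bound to transferrin, had 139, 134, 133 and 134 CPM in the Nur77 line and 82.1, 73.8, 78.9 and 62.9 CPM in the GFP line at 0 h (0.86 ± 0.10). At 5 h the lines overlapped, with 201, 234, 240.2 and 236 CPM in the Nur77 line and 201, 209, 198 and 209.7 CPM in the GFP line (0.15, adjusted p = 0.19). Slc30a4, which moves zinc into vesicles, was higher by 0.84, 0.80 (0.68 without replicate 2) and 0.61. The iron exporter Slc40a1 was called at no time between the lines, although its value at 1 h passed without replicate 2 (-0.26, adjusted p = 0.015).

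Slc48a1 (chr15:97784365-97792692), which carries haem out of the phagolysosome after red cells are engulfed, had 30.1, 30.8, 32.2 and 28.6 CPM in the Nur77 line and 69.4, 65.4, 66.7 and 68.3 CPM in the GFP line at 0 h. At 5 h it had 15.0, 16.8, 16.6 and 15.1 CPM in the Nur77 line and 49.2, 47.9, 48.0 and 46.2 CPM in the GFP line. The log2 fold change was -1.15 ± 0.05 (SE) at 0 h and -1.59 ± 0.06 at 5 h (adjusted p = 1.8e-17), and the lines stayed far apart at all 3 times. Slc23a2, the sodium-coupled importer of vitamin C, was lower, with log2 fold changes of -0.32, -0.54 (-0.56 without replicate 2) and -0.75 at 0, 1 and 5 h. Slc27a1, which takes up long-chain fatty acids, was lower, with log2 fold changes of -0.58, -0.80 (-0.83 without replicate 2) and -0.57.

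**Figure D3:**
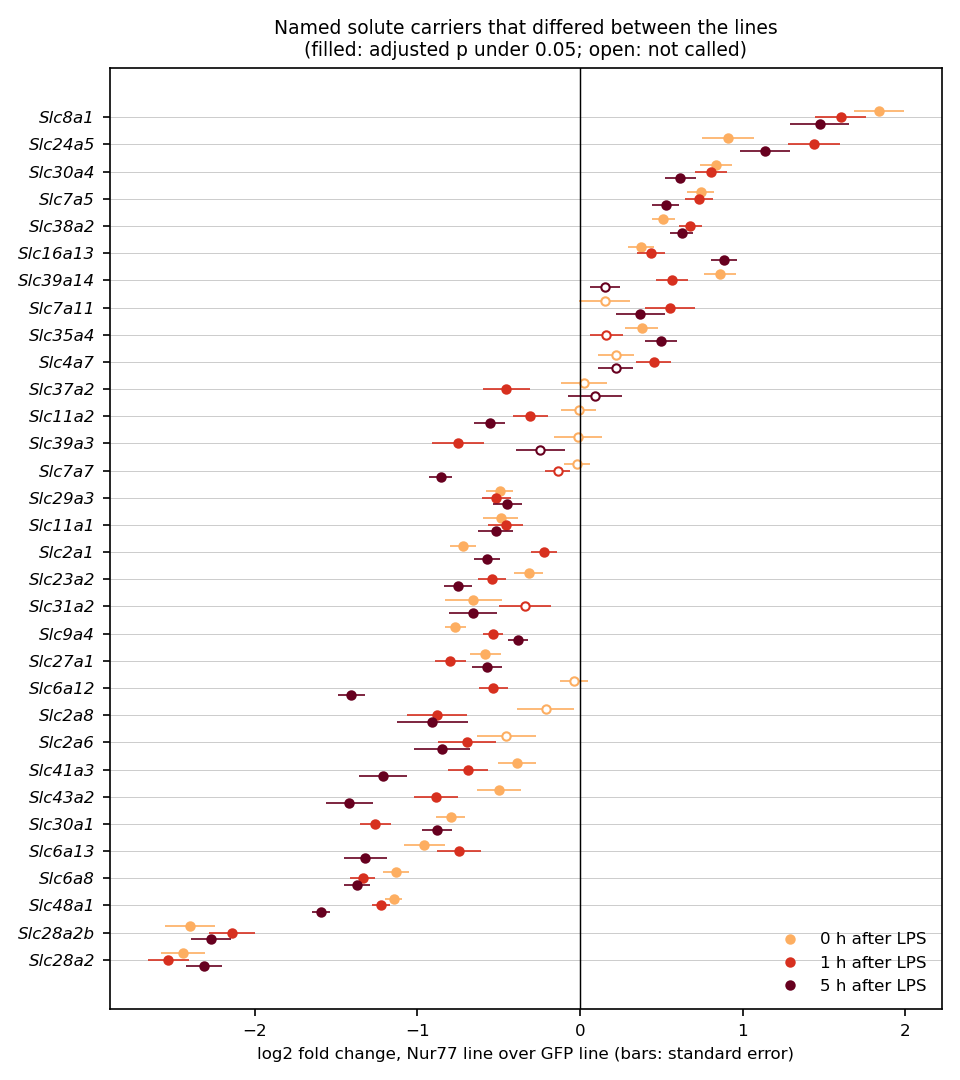
Log2 fold change of the Nur77 line against the GFP line at 0, 1 and 5 h for 32 named members, with standard errors. Among these, Slc28a2 and Slc28a2b lie lowest at every time and Slc8a1 highest. Slc7a2, with almost no counts before 5 h, is left out.

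Carriers of inorganic ions were the class with more members higher than lower in the Nur77 line at each time, 8 and 2 of 20 at 0 h, 6 and 3 at 1 h (5 and 3 without replicate 2), and 6 and 5 at 5 h. Of all genes, 20.3% were higher and 19.7% lower at 0 h, 26.4% and 24.8% at 1 h, and 22% and 24.4% at 5 h. In a class of 20, the counts at 1 and 5 h are near these shares and say nothing particular about it. Slc8a1 (chr17:81373105-81738387), the sodium/calcium exchanger, had 29.7, 26.7, 27.7 and 28.7 CPM in the Nur77 line and 7.77, 8.21, 8.92 and 6.59 CPM in the GFP line at 0 h. At 5 h it had 8.95, 7.93, 8.47 and 10.7 CPM in the Nur77 line and 3.30, 3.20, 3.14 and 3.27 CPM in the GFP line. The log2 fold changes were 1.84 ± 0.15 (SE, adjusted p = 4.2e-10) at 0 h and 1.47 ± 0.18 at 5 h. At 1 h it was 1.60, and 1.79 without replicate 2, which was at 14.8 CPM where the other 3 libraries were at 29.6 to 30.9 CPM. Slc24a5, a potassium-dependent sodium/calcium exchanger known from melanosomes, was higher by 0.91, 1.44 (1.33 without replicate 2) and 1.14 at 0, 1 and 5 h. The gene Myef2 covers 47.1% of its exon bases on the opposite strand, and the strand setting of the counts is not given in the sources used here, so reads of the 2 genes may be mixed. Slc9a4, a sodium/proton exchanger, was lower, with log2 fold changes of -0.77, -0.54 (-0.61 without replicate 2) and -0.38. Another annotated transcript lies opposite to 11.7% of its exon bases.

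Mitochondrial carriers had 7 of 33 members higher and 7 lower at 0 h, 5 and 10 at 1 h (5 and 11 without replicate 2), and 6 and 9 at 5 h. Across all genes, 20.3% and 19.7% were called at 0 h, 26.4% and 24.8% at 1 h, and 22% and 24.4% at 5 h. The citrate carrier Slc25a1 was lower, with log2 fold changes of -0.36, -0.24 (-0.29 without replicate 2) and -0.21 at 0, 1 and 5 h. Slc25a5 was called lower at 1 h only (-0.32, and -0.30 without replicate 2). Nucleotide sugar carriers, a class assigned by gene symbol, had 4 of 13 higher and 2 lower at 0 h, 1 and 4 at 1 h (2 and 5 without replicate 2), and 3 and 2 at 5 h. The GDP-fucose carrier Slc35c1 was lower, with log2 fold changes of -0.29 at 0 h and -0.31 at 5 h, and Slc35b1 was higher by 0.29 and 0.33.

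The response to LPS was then described within each line. At 5 h, 60 members were higher and 62 lower than at 0 h in the Nur77 line, against 66.7% of all genes called, 32.5% higher and 34.2% lower. In the GFP line 71 were higher and 57 lower, against 62.6% of all genes, 30.6% higher and 32% lower. A log2 fold change of at least 1 in size was reached by 20 higher and 15 lower members in the Nur77 line (8.32% and 10.2% of all genes), and by 21 and 10 in the GFP line (8.41% and 7.77%). At 1 h, 31 were higher and 59 lower in the Nur77 line, against 44.4% of all genes, 22.5% higher and 21.8% lower. Without replicate 2 there were 30 and 52, and a fit of only the 2 groups compared called 59 members in all. The GFP line had 23 higher and 11 lower at 1 h, against 17.4% of all genes, 9.75% higher and 7.68% lower. Without GFP line replicate 1 at 1 h, the number lower there was 7. Of the members, 53.3% and 72.2% were called at 1 and 5 h in the Nur77 line and 20.1% and 75.7% in the GFP line. Among all genes that averaged 5 CPM or more, the shares were 48.8% and 70.9% in the Nur77 line and 18.9% and 66% in the GFP line. A share near that background says nothing particular about the members. Both lines called 55 members higher and 51 lower at 5 h, against 26% and 27% of all genes. No member was called in opposite directions, against 0.475% of all genes. Over all members, summed CPM at 0, 1 and 5 h were 11825 to 12033, 12190.4 to 13578 and 15024 to 15939 in the Nur77 line, and 11496 to 12369, 13055 to 13259.5 and 15884 to 16195 in the GFP line. Without replicate 2 the Nur77 line ran from 12190.4 to 13117 at 1 h. Without TMM, the scaling between libraries, its mean was lower at 1 h than at 0 h, with 12667 and 13470.5 CPM, against 12914 and 11942 CPM with it.

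With Slc7a2 left aside, the member with the most LPS gain was Slc15a3 (chr19:10842544-10857915), a lysosomal carrier of histidine and small peptides. In the Nur77 line it had 27.4, 30.4, 26.8 and 28.8 CPM at 0 h, 85.4, 179, 98.8 and 84.9 CPM at 1 h and 478, 459, 466 and 440.0 CPM at 5 h. In the GFP line it had 37.0, 38.7, 36.9 and 37.2 CPM at 0 h, 94.1, 86.9, 89.6 and 91.9 CPM at 1 h and 504, 518, 464 and 482 CPM at 5 h. All libraries of a time lay above those of the time before. The log2 fold change at 5 h was 4.02 ± 0.17 (SE) in the Nur77 line and 3.71 ± 0.16 in the GFP line, and at 1 h 1.98 (1.66 without replicate 2) and 1.27. The related Slc15a4, which acts beside endosomal Toll-like receptors, fell in the Nur77 line at 5 h (-0.54) and was not called in the GFP line (-0.08). With all libraries the difference of these 2 responses was not called. Without replicate 2 of the Nur77 line at 1 h it was -0.47 (adjusted p = 0.035). A further annotated transcript lies opposite to 15.6% of the exon bases of Slc15a4.

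Among 13 sugar carriers, 2 rose at 5 h in each line, 8 fell in the Nur77 line and 9 in the GFP line. Of all genes, 32.5% rose and 34.2% fell in the Nur77 line, and 30.6% and 32% in the GFP line. The 2 that rose were Slc2a1, by 1.83 in the Nur77 line and 1.69 in the GFP line (log2), and Slc2a6, by 1.52 and 1.91. Slc37a2 (chr9:37229149-37255738), which exchanges glucose 6-phosphate for phosphate across the endoplasmic reticulum, had 14.6, 18.4, 14.0 and 14.0 CPM at 5 h and 74.8, 73.4, 74.8 and 71.3 CPM at 0 h in the Nur77 line. GFP line libraries had 13.9, 14.0, 14.6 and 14.8 CPM at 5 h and 77.6, 73.5, 73.4 and 65.0 CPM at 0 h. The log2 changes were -2.27 ± 0.16 and -2.34 ± 0.16 (SE), and the lines overlapped at 5 h. Slc2a8 fell, with log2 changes of -1.92 in the Nur77 line and -1.23 in the GFP line. Slc16a3, which exports the lactate of glycolysis, rose by 1.20 and 0.78 in the Nur77 and GFP lines, while Slc16a1 was not called at 5 h in either.

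Amino acid carriers had 13 of 26 members higher and 8 lower at 5 h in the Nur77 line, and 15 and 7 in the GFP line. The shares of all genes were 32.5% and 34.2%, and 30.6% and 32%. Slc7a11 (chr3:50364936-50499087), the exchanger that imports cystine for glutathione against glutamate, had 98.6, 80.5, 74.8 and 90.1 CPM at 0 h, 145, 281, 183 and 209 CPM at 1 h and 308, 308, 309 and 413 CPM at 5 h in the Nur77 line. The GFP line had 78.7, 69.9, 85.7 and 75.0 CPM, 176, 140.1, 121 and 120.0 CPM and 261, 267, 239 and 267 CPM at these times. It rose by 1.96 ± 0.16 (log2, SE) in the Nur77 line and 1.74 ± 0.16 in the GFP line at 5 h, and the line difference at 5 h was near the threshold (0.37, adjusted p = 0.049). Its promoter with 2 amino acid response elements is shown above. Slc7a1 rose by 1.00 and 0.92, Slc3a2 by 0.72 and 0.73, Slc38a2 by 0.78 and 0.67, and Slc1a5 by 0.37 and 0.34 in the Nur77 and GFP lines. Slc7a2 is described by the counts given above.

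**Figure D4:**
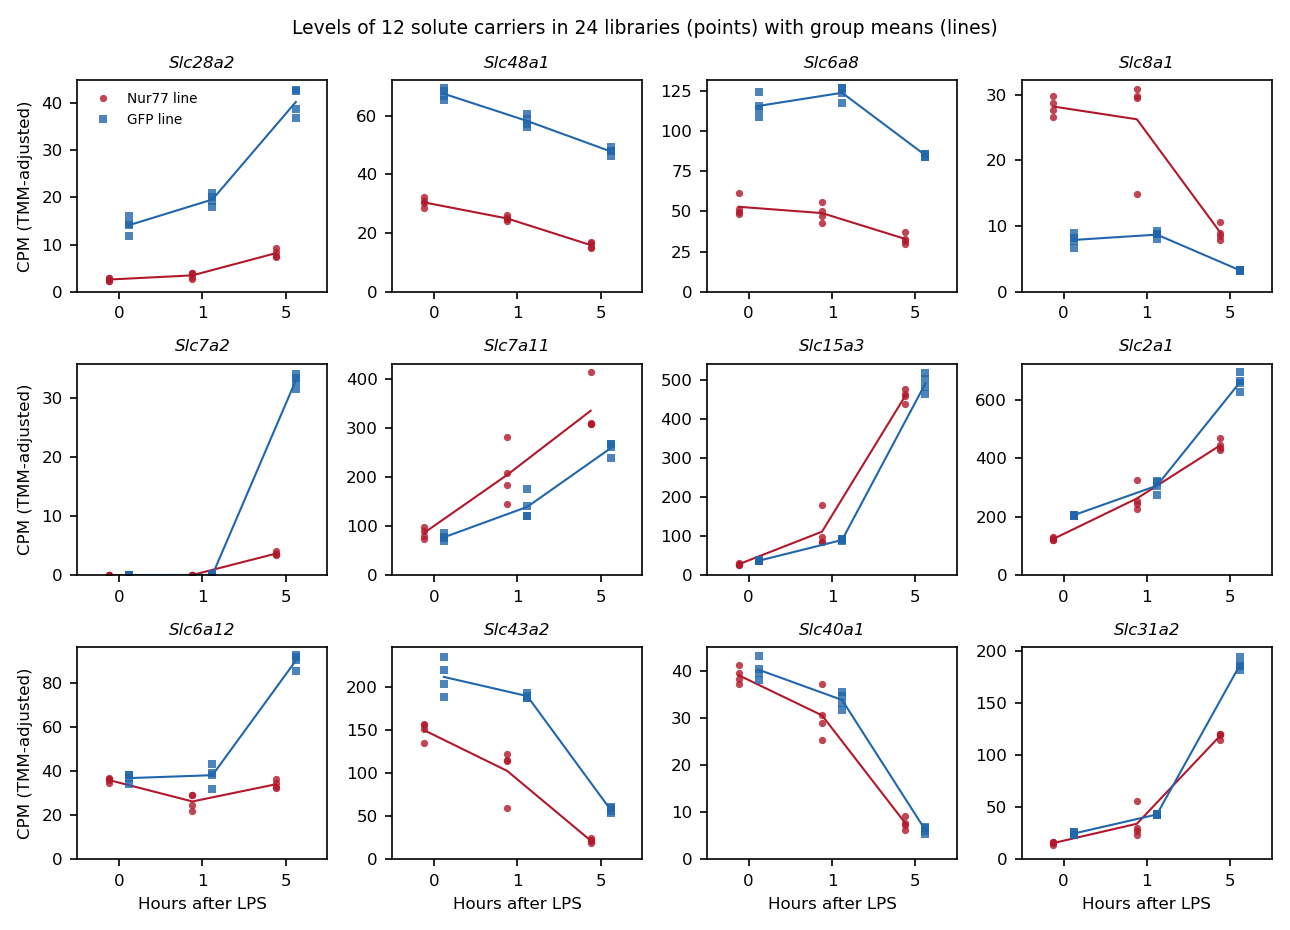
CPM of single libraries on linear axes from 0 for members with large differences, with the Nur77 line left of the GFP line at 0, 1 and 5 h. Points are libraries, and lines join the means of 4 over time. At 5 h Slc6a12 has 32.1 to 36.4 CPM in the Nur77 line and 85.4 to 92.6 CPM in the GFP line.

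Metal carriers rose more often than they fell at 5 h, with 16 of 24 higher and 6 lower in the Nur77 line and 17 and 4 in the GFP line. Of all genes, 32.5% were higher and 34.2% lower in the Nur77 line, and 30.6% and 32% in the GFP line. The gain was largest for Slc31a2 (chr4:62280393-62298412), with 119.7, 121, 121 and 114 CPM at 5 h and 13.2, 16.7, 16.4 and 15.6 CPM at 0 h in the Nur77 line, and 182, 195, 187 and 186 CPM at 5 h and 26.2, 25.8, 23.0 and 23.3 CPM at 0 h in the GFP line. The log2 fold change was 2.94 in both lines. Slc39a1, a zinc importer of the surface, rose by 1.43 in the Nur77 line and 1.30 in the GFP line; it shares 21.8% of its 50-base stretches with a pseudogene. The iron exporter Slc40a1 (chr1:45908070-45926532) fell in both lines, to 7.30, 7.78, 6.24 and 9.11 CPM at 5 h, against 38.4, 39.7, 37.3 and 41.3 CPM at 0 h, in the Nur77 line. In the GFP line it fell to 6.81, 6.59, 5.91 and 5.27 CPM at 5 h, against 38.2, 39.6, 43.2 and 40.5 CPM at 0 h. These are log2 changes of -2.38 ± 0.11 and -2.71 ± 0.11 (SE). Slc11a2, which imports divalent iron, rose by 1.77 and 2.32. Slc30a1 fell at 1 h, with log2 changes of -0.99 in the Nur77 line (-1.03 without replicate 2) and -0.52 in the GFP line.

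Carriers of inorganic ions had 7 of 20 members higher and 7 lower at 5 h in the Nur77 line, and 11 and 6 in the GFP line. For all genes the shares were 32.5% and 34.2%, and 30.6% and 32%. The counts in the Nur77 line lie near its shares. Slc20a1 (chr2:129198773-129211615) had 222, 222, 224 and 224 CPM at 0 h, 589, 610.0, 528 and 581 CPM at 1 h and 414, 411, 405 and 409.7 CPM at 5 h in the Nur77 line. The GFP line had 192, 189, 191 and 191 CPM, 593, 603, 595 and 597 CPM and 456, 438, 457 and 451 CPM at these times. It was highest at 1 h in both lines, with log2 fold changes of 1.37 ± 0.05 (SE, 1.34 without replicate 2) in the Nur77 line and 1.64 ± 0.05 in the GFP line. Slc4a7, which imports bicarbonate with sodium, rose by 2.44 at 5 h in the Nur77 line and by 2.44 in the GFP line. Slc8a1 fell, with log2 changes of -1.65 and -1.29.

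In the other classes, the purine nucleoside carrier Slc28a2 rose by 1.64 in the Nur77 line and 1.51 in the GFP line at 5 h. Slc23a2 rose by 1.03 and 1.46. Mitochondrial carriers had 9 of 33 higher and 15 lower at 5 h in the Nur77 line and 7 and 13 in the GFP line. All genes had 32.5% higher and 34.2% lower in the Nur77 line, and 30.6% and 32% in the GFP line. Slc25a37, which brings iron into mitochondria, rose by 0.75 and 1.42, whereas its paralogue Slc25a28 fell, with log2 changes of -0.37 and -0.45. Slc25a25, a carrier of ATP-Mg and phosphate, rose by 1.15 and 1.48. The opposite-strand gene Naif1 covers 10.8% of its exon bases. Slc25a45, a carrier of the same family, fell, with log2 changes of -1.35 and -1.34. The organic anion carrier Slco4a1 and the GDP-fucose carrier Slc35c1 were lower at 1 h in both lines, with log2 changes of -0.79 and -0.41 in the Nur77 line (-0.79 and -0.43 without replicate 2) and of -0.30 and -0.48 in the GFP line. Neither was called at 5 h against 0 h.

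**Figure D5:**
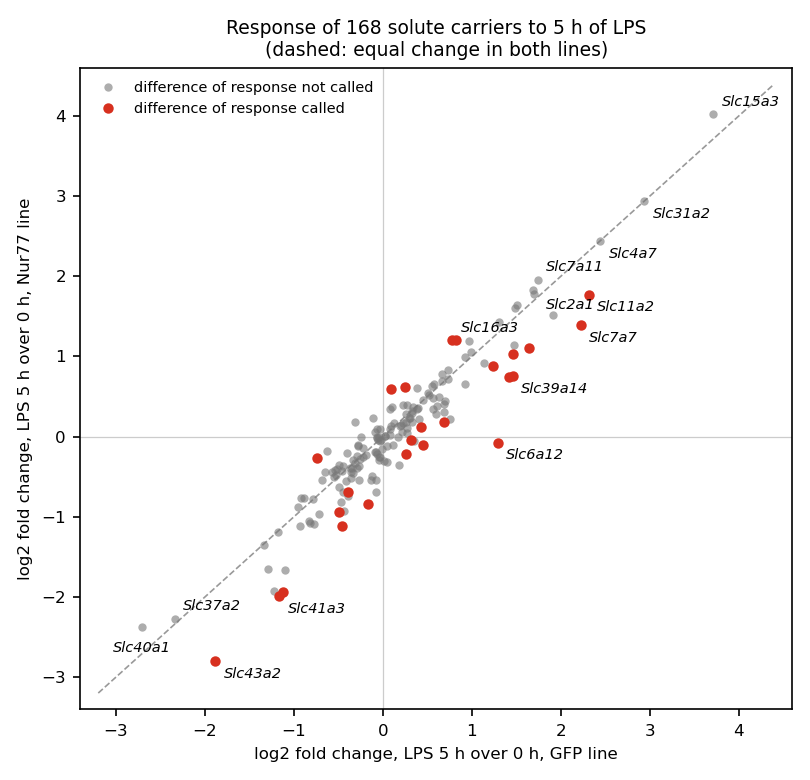
Log2 fold change of LPS at 5 h against 0 h in the Nur77 line and in the GFP line, 1 point per member, with members whose response differed between the lines marked. Slc6a12 lies farthest from the diagonal, at -0.08 in the Nur77 line and 1.29 in the GFP line. Slc7a2 is left out.

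The response itself was compared between the lines as a difference of log2 fold changes, the response of the Nur77 line minus that of the GFP line. At 5 h, 5 members responded more positively and 20 more negatively in the Nur77 line, against 7.88% of all genes called (2.75% positive and 5.12% negative) and 9.04% of those that averaged 5 CPM or more. Without replicate 2 of the Nur77 line at 1 h, which takes no part in this contrast but shares the estimate of spread, these counts were 8 and 28. At 1 h, 1 member was called positive and 2 negative, against 1.13% of all genes (0.615% positive and 0.516% negative) and 1.37% of those at 5 CPM or more, and 2 and 5 without that library; the total at 1 h ran from 0 to 28 as each library was left out in turn, with 28 without replicate 1 of the Nur77 line at 1 h. By class, the negative differences at 5 h included 6 of 26 amino acid carriers, 3 of 24 metal carriers, 3 of 33 mitochondrial carriers and 3 of 20 ion carriers, and no sugar or nucleotide sugar carrier passed the test. Without replicate 2 of the Nur77 line at 1 h, these numbers were 6, 5, 4 and 3. In that fit 2 of 13 sugar carriers were called negative as well.

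Among the members called at 5 h, the difference was largest for Slc6a12 (chr6:121342574-121365773), the importer of betaine and GABA, whose promoter is shown above. In the Nur77 line it had 34.6, 36.4, 32.1 and 32.8 CPM at 5 h and 37.0, 36.4, 34.4 and 35.8 CPM at 0 h, a change of -0.08 that was not called (adjusted p = 0.44). In the GFP line it had 92.6, 90.6, 85.4 and 91.9 CPM at 5 h and 34.3, 38.0, 38.2 and 36.7 CPM at 0 h, a rise of 1.29 ± 0.08 (log2, SE). The difference of the responses was -1.37 ± 0.12 (SE, adjusted p = 1.5e-08), and the lines overlapped at 0 h (-0.04). At 1 h the difference was -0.49, and -0.41 without replicate 2, a call lost under 21 of 31 alternatives (highest adjusted p 0.18). Slc43a2 fell, with log2 changes of -2.81 in the Nur77 line and -1.88 in the GFP line, a difference of -0.92 ± 0.20 (adjusted p = 0.0039). Slc7a7 (chr14:54369442-54420068), which exports cationic amino acids in exchange for neutral ones, had 42.1, 46.8, 41.9 and 43.9 CPM at 5 h and 16.7, 17.5, 16.2 and 16.3 CPM at 0 h in the Nur77 line. The GFP line had 74.0, 79.8, 83.2 and 79.3 CPM at 5 h and 15.5, 17.0, 18.2 and 16.5 CPM at 0 h. It rose in both, by 1.39 and 2.23, with a difference of -0.84 ± 0.11 (adjusted p = 7.8e-06). The opposite-strand gene Oxa1l covers 10.1% of its exon bases.

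Of the metal carriers, Slc39a14 rose by 0.75 in the Nur77 line and 1.46 in the GFP line, a difference of -0.71 ± 0.13 (adjusted p = 0.0011). The magnesium carrier Slc41a3 fell, with log2 changes of -1.99 and -1.16 (-0.83), and Slc11a2 differed by -0.55. The haem carrier Slc48a1 fell more in the Nur77 line (-0.94 against -0.50, difference -0.45, adjusted p = 0.00048). Slc20a1 rose less in the Nur77 line, with differences of -0.27 (-0.30 without replicate 2) at 1 h and -0.36 at 5 h. The call at 1 h was lost under 12 of 31 alternatives (highest adjusted p 0.18). More positive in the Nur77 line at 5 h were Slc16a3 (0.42), Slc16a13, a member of the monocarboxylate carrier family (0.51), Slc9a4 (0.38) and Slc12a9, a relative of the chloride cotransporters (0.47, adjusted p = 0.045). At 1 h Slc2a1 rose more in the Nur77 line, by 1.07 against 0.58 in the GFP line, a difference of 0.50 ± 0.11 (adjusted p = 0.025). Without replicate 2 it was 0.37 (adjusted p = 0.0084), and the call was lost under 5 of 31 alternatives. That library had 327 CPM of Slc2a1 and the other 3 had 226 to 254 CPM.

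Related genes outside the Slc symbols were counted as well. Of all genes tested, 20.3% were higher and 19.7% lower in the Nur77 line at 0 h, and 22% and 24.4% at 5 h. A count near these shares says nothing particular about a list. Of 29 tested carriers of the same kind under other symbols, 5 were higher and 10 lower in the Nur77 line than in the GFP line at 5 h, and 7 and 8 at 0 h. Mfsd12, which brings cystine into lysosomes and melanosomes, averaged 83.7 ± 4.44 CPM in the Nur77 line and 190.6 ± 14.0 CPM in the GFP line at 0 h (SD, n = 4 each), and its log2 fold change was -1.19 at 0 h and -1.79 at 5 h. Of 29 tested ABC transporters, which use ATP, 5 were higher and 10 lower at 5 h, and 5 and 6 at 0 h. Abcg2, an efflux pump for drugs and porphyrins, averaged 8.46 ± 0.882 CPM in the Nur77 line and 45.5 ± 2.25 CPM in the GFP line at 5 h (SD, n = 4 each; log2 fold change -2.43, adjusted p = 1.3e-13).

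For genes that handle the metals once inside the cell, 9 of 9 zinc and copper genes were tested. In the Nur77 line 1 was higher and 5 lower at 5 h, and 0 and 6 at 0 h. The shares of all genes were 22% and 24.4% at 5 h, and 20.3% and 19.7% at 0 h. The metallothionein Mt2 averaged 180.4 ± 10.5 CPM in the Nur77 line and 826 ± 26.0 CPM in the GFP line at 5 h (SD, n = 4 each; log2 fold change -2.19), and its response to 5 h of LPS differed by -1.37 (adjusted p = 3.7e-07). Of 14 tested iron genes, 4 were higher and 6 lower at 0 h, and 3 and 7 at 5 h. Hmox1, which degrades haem, averaged 67.9 ± 2.75 CPM in the Nur77 line and 173 ± 3.09 CPM in the GFP line at 0 h (SD, n = 4 each; log2 fold change -1.35, adjusted p = 9.3e-16), and the ferritin chain Fth1 had a log2 fold change of -0.87. The transferrin receptor Tfrc was higher by 0.65. Of 6 tested accessory proteins of carriers, 2 were higher and 3 lower at 0 h, and 2 and 2 at 5 h. Bsg, which escorts the lactate carriers to the surface, had log2 fold changes of -0.54 at 0 h and -0.50 at 5 h, and Laptm4b, which brings an amino acid exchanger to lysosomes, had -2.06 and -1.78.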

How the data were processed

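Messenger RNA libraries of 24 RNA samples in 6 groups of 4 were analysed. Per the labels' protocols, total RNA was purified on RNeasy columns with DNase treatment and libraries were made with the KAPA mRNA HyperPrep kit. Mouse build mm10, HISAT2 2.1.0 and CASAVA 1.8.2 are listed in the submitters' processing notes. How reads were counted, with which strand setting and annotation, is not given in the sources used here. A table deposited by the authors holds estimated counts, not normalized, for 42361 transcripts. RefSeq tables named 42203 of them, GENCODE 65 more, and 93 kept their own identifier. Isoforms of a gene repeat nearly the same reads, so 1 transcript per gene, that with the highest mean, was used for all 25160 genes. This choice gives a depth of 8134143 to 29275847 per library, where the whole table sums to 15925373.5 to 57880679.5.

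Estimated counts were rounded to whole numbers, filtered with filterByExpr (12198 genes left, all 169 members among them), scaled with TMM factors (0.896 to 1.14) and fitted with 6 group means in edgeR 4.0.16 (glmQLFit and glmQLFTest, robust) under R 4.3.3. The fit had 18 residual degrees of freedom, and the common biological coefficient of variation was 0.0979. P-values were adjusted over all genes tested by the Benjamini-Hochberg method and called under 0.05. Adjusted p-values come from this test on all libraries unless another fit is named. Those given without replicate 2 come from the same test refitted without that library. A highest adjusted p is the maximum over the alternatives below, DESeq2 among them. SE was taken as the size of a log2 change over the root of its F value. Levels are CPM after TMM scaling, and levels per kb divide by the exon length of the chosen transcript, known for 158 members. The fit was tested on simulated counts.

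Alternatives were DESeq2 1.42.0, its size factors within edgeR, other filters, a fit of only the groups compared, the mean over a gene's transcripts, a replicate block, CPM without TMM, and leaving out each library. Over 60 pairs of libraries with the same number in different groups, 8 correlated above 0.1 in their deviations, so the numbers were not taken to pair the samples. The members, substrate classes and gene lists were chosen with earlier results of these data known. Named with values were the highest member per kb of each substrate class, up to 4 higher and 4 lower members with the largest change in each comparison (groups not overlapping, outside the differences of response), known macrophage carriers (Slc2a1, Slc7a11, Slc40a1 and others) and, in each other list, up to 4 genes with the smallest adjusted p. Slc38a1 and Slc25a3 were named after their level was seen. Coordinates are those of GRCm38, counted from 1.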

Additional observations from a re-analysis of the deposited data

Results flagged for a closer look

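Responses to LPS that differed between the lines among the named members are listed first, as the log2 change in the Nur77 line minus that in the GFP line. At 1 h these were Slc20a1 at -0.27, Slc2a1 at 0.50 and Slc6a12 at -0.49. At 5 h the differences in nutrient carriers were Slc6a12 at -1.37, Slc43a2 at -0.92, Slc7a7 at -0.84, Slc16a3 at 0.42, Slc16a13 at 0.51, Slc23a2 at -0.44 and Slc29a1 at -0.48. Those in metal and haem carriers were Slc41a3 at -0.83, Slc39a14 at -0.71, Slc25a37 at -0.67, Slc11a2 at -0.55 and Slc48a1 at -0.45. Those in carriers of ions were Slc20a1 at -0.36, Slc9a4 at 0.38 and Slc12a9 at 0.47. Each passed the test of the difference itself.

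Single libraries far from the other 3 of their group were found in 24 of 330 groups of named members, where about 16.5 are due by chance at 1 in 20. The ratio given is the gap to the nearest library over the range of the group. Of these, 5 were replicate 2 of the Nur77 line at 1 h: Slc7a2 (0.928), Slc8a1 (0.919) and Slc43a2 (0.862) were low there, and Slc39a1 (0.860) and Slc15a3 (0.853) high. In the Nur77 line at 0 h, Slc7a2 was high in replicate 3 (1.00), Slc23a2 high in replicate 1 (0.902), Slc16a1 high in replicate 4 (0.887), Slc38a2 low in replicate 3 (0.850), Slco4a1 low in replicate 3 (0.847) and Slc7a1 high in replicate 1 (0.836). Slc7a2 had a count in only 1 of those 4 libraries. In the Nur77 line at 5 h, replicate 4 was high for Slc7a11 (0.983), Slc38a2 (0.927) and Slc4a7 (0.856), replicate 2 high for Slc37a2 (0.856) and replicate 1 low for Slc39a14 (0.838).

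In the GFP line at 0 h, Slc4a7 was high in replicate 3 (0.902), Slc3a2 high and Slc11a1 low in replicate 4 (0.898 and 0.871), and Slc15a3 high in replicate 2 (0.852). At 1 h replicate 1 was high for Slc7a1 (0.934) and low for Slc9a3r1 (0.916), and at 5 h replicate 4 was high for Slc41a3 (0.905) and Slc35c1 (0.830).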

How the results depend on the processing

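No called value changed direction under any alternative tried. Of 272 called values of named members, 236 kept their call under every alternative and 36 lost it under at least 1. Lost under 6 or more of 31 alternatives were 11: the line differences of Slc7a11 at 5 h (23) and of Slc15a3 (15) and Slc7a1 (6) at 0 h, LPS at 1 h for Slc28a2b in the Nur77 line (20) and Slc9a3r1 in the GFP line (7), and the differences of response of Slc6a12 (21) and Slc20a1 (12) at 1 h and of Slc12a9 (19), Slc25a37 (14), Slc29a1 (10) and Slc23a2 (6) at 5 h. The differences of Slc6a12 and Slc20a1 at 1 h were among those lost with the replicate block, with no filter, and when only the groups compared were fitted. The total of called members moved by over 1.5 times in 3 comparisons, apart from leaving out libraries. Between the lines at 1 h, the members higher numbered 19 when only the groups compared were fitted, against 33, while those lower numbered 48, against 63. LPS at 1 h in the Nur77 line called 59 members when only the groups compared were fitted, against 90 with all groups. The difference of the 1 h response called 3 members with all groups, 12 with DESeq2, 1 with no filter, and 0 when only the groups compared were fitted. The difference of the 5 h response called 43 when only the groups compared were fitted, against 25. The cause was not tested. With each library left out in turn, the number of called members ran from 71 to 88 at 0 h, 87 to 108 at 1 h and 85 to 106 at 5 h between the lines. For LPS at 1 h it ran from 80 to 99 in the Nur77 line and 29 to 44 in the GFP line, and at 5 h from 117 to 126 and 122 to 130. For the difference of response it ran from 0 to 28 at 1 h and 18 to 36 at 5 h. At 1 h it was 28 without Nur77 line replicate 1, 11 without replicate 4 and 7 without replicate 2 at that time. It was 0 without GFP line replicate 4, or without Nur77 line replicate 1 or 4, at 0 h.

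With the replicate number as a block, the numbers called were 80, 97 and 95 between the lines at 0, 1 and 5 h, 87 and 122 for LPS at 1 and 5 h in the Nur77 line, 33 and 129 in the GFP line, and 1 and 23 for the difference of response at 1 and 5 h. Without TMM factors the mean summed CPM of all members was 13470.5, 12667 and 14213.8 at 0, 1 and 5 h in the Nur77 line, and 12979, 13247 and 14552 at 0, 1 and 5 h in the GFP line. For amino acid carriers it was 4031 and 4373 at 0 and 5 h in the Nur77 line and 3809.5 and 4109 in the GFP line, and for metal carriers 1779 and 2052, and 1673 and 2169.6. Slc7a2 had 1.5 to 5 summed counts per group of 4 libraries at 0 and 1 h, so its changes from those times are imprecise.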
